A study of Drosophila melanogaster with 13 samples.

Results

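The trypsin-like and Jonah proteases of the gut were taken from the gene counts by symbol: names of Jon followed by a number (16 genes), Greek-letter trypsins such as *alphaTry* (11 genes), and *Ser6*, *Ser7*, *Ser8* and *Ser12* (4 genes). These rules found 31 of the 17476 genes in the counts, and no expression value entered the choice. Gene expression had been measured by sequencing polyadenylated RNA of whole first instar male larvae, in 3 libraries of the *roX1 roX2* double mutant, 4 of the *roX1* mutant, 3 of the *roX2* mutant and 3 of wildtype. The larvae were sons of y1 w1118 roX1ex6 v1 roX2 9-4/FM7i GFP, y1 w1118 roX1ex6, y1 cho2 v1 roX2 9-4 or y1 w1118 mothers, in that order of genotype, and of fathers carrying the GFP-marked FM7i balancer, so that larvae without GFP were taken. The roX2 9-4 allele is a deletion made with CRISPR/Cas9. All strains thus carried y1, and only the *roX2* mutant strain lacked w1118 and carried cho2. The *roX2* and *roX1 roX2* mutant strains both carried v1, which the other strains did not. The genotypes were not isogenic: their autosomes were heterozygous and of partly different origin. Each library pooled larvae, and RNA of the whole body was sequenced, so fewer gut cells and less RNA per cell cannot be told apart.

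Larval flies digest dietary protein in the midgut with secreted serine proteases of the trypsin fold, which are made as inactive precursors and activated by cleavage. Trypsins cut after lysine and arginine, while the Jonah genes encode proteases related to chymotrypsin and are a classical set of genes expressed in midgut enterocytes. The *roX1* and *roX2* genes encode long non-coding RNAs of the male-specific lethal complex, which raises transcription of the single male X chromosome; most of the protease genes lie on autosomes.

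The libraries held between 45620194 and 83954893 counts on genes. The deleted genes followed the labels, with *roX1* at 1.40 to 4.06 CPM (counts divided by the TMM-adjusted library size, on the usual CPM scale) in *roX1 roX2* mutant larvae and 0.769 to 3.41 CPM in *roX1* mutant larvae, against 971 to 1131 CPM in wildtype. At most 0.0451 CPM of *roX2* was counted in *roX1 roX2* mutant larvae and 0.0365 CPM in *roX2* mutant larvae, against 18.5 to 25.3 CPM in wildtype. Values of single libraries are given below in the order of their replicate numbers, which are 2, 3 and 4 in *roX1 roX2* mutant larvae, 1 to 4 in *roX1* mutant larvae, 2, 3 and 4 in *roX2* mutant larvae and 1, 3 and 4 in wildtype. Wildtype replicate 1 stood apart for these genes, as described below, and the protease fold changes against wildtype are therefore given with and without it. Replicates of each genotype differed by more than sampling noise, and the labels do not say whether they came from separate crosses, so that p-values measure the spread between these libraries.

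Of the 31 protease genes 25 lie in 6 tight clusters (positions from Ensembl annotation BDGP6.54). All 11 trypsins occupy 20.7 kb of chromosome arm 2R, at 2R:11336840-11357537, where *lambdaTry* and *kappaTry* are separated by only 5 bp. The Jonah clusters are Jon25B on 2L (2L:4949941-4955144, 3 genes), Jon65A (3L:6039155-6054443, 4 genes) and Jon66C (3L:8391540-8393649, 2 genes) on 3L, and Jon99C (3R:29922216-29926189, 3 genes) and Jon99F (3R:30487016-30489895, 2 genes) on 3R. *Jon44E* (2R:8691448-8692844), *Jon74E* (3L:17548077-17549127), *Ser8* (2R:13434207-13435045) and *Ser12* (2L:2250431-2251275) stand alone on autosomes. Only *Ser7* (X:9865233-9867070) and *Ser6* (X:20962605-20963505) are on the X chromosome. The genes are short, with 810 to 1413 bases of annotated exon, and 25 of the 31 are annotated with a single exon. On the opposite strand, *Jon44E* overlaps *CG8586* only from 2R:8692796 to its end at 8692844. Likewise *deltaTry* overlaps *CG13202* only from 2R:11356114 to its end at 11356128, and *Ser8* lies inside *ATP8A*. Since the library kit does not mark the strand, reads of these shared stretches cannot be told apart by strand. Reads that aligned to several places were not counted, so the levels of closely related neighbours (*Jon99Cii* and *Jon99Ciii*, *Jon99Fi* and *Jon99Fii*, *gammaTry* and *deltaTry*) are uncertain.

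In wildtype, the protease genes spanned more than 4 orders of magnitude in TPM (counts divided by exon length and by the sum of these quotients in the library, on the usual TPM scale). The most abundant was *Jon65Aiv*, at 3226 ± 2877 TPM (SD, n = 3), followed by *Jon65Aiii* at 1959 ± 1833 TPM, *Jon99Cii* at 1848 ± 1921 TPM, *Jon99Ciii* at 1336 ± 1462 TPM, *Jon66Ci* at 1209 ± 1762 TPM and *Jon25Bii* at 1132 ± 774 TPM. Neighbours in this order differed by less than their SD. The 6 genes together held 57.8% to 72.5% of the summed TPM of all protease genes in each library. *Jon65Aiv* also ranked first in the *roX1 roX2* and *roX1* mutants, and was second to *Jon99Cii* in the *roX2* mutant. Among the trypsins, *epsilonTry* was the most abundant in wildtype with 730.3 ± 773 TPM, and *alphaTry* (227 ± 139 TPM) and *betaTry* (212 ± 80.1 TPM) came next. The *gammaTry* gene was the lowest trypsin at 3.71 ± 2.91 TPM, and *Jon44E* (2.73 ± 1.78 TPM) was the lowest Jonah gene. *Ser6*, the only Ser gene with more than trace counts, had 28.1 ± 33.6 TPM, whereas *Ser8* and *Ser7* stayed at or below 3.13 and 0.166 TPM in any library. *Ser12* had 0 counts in all 13 libraries and was not tested, which left 30 genes.

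**Figure D1:**
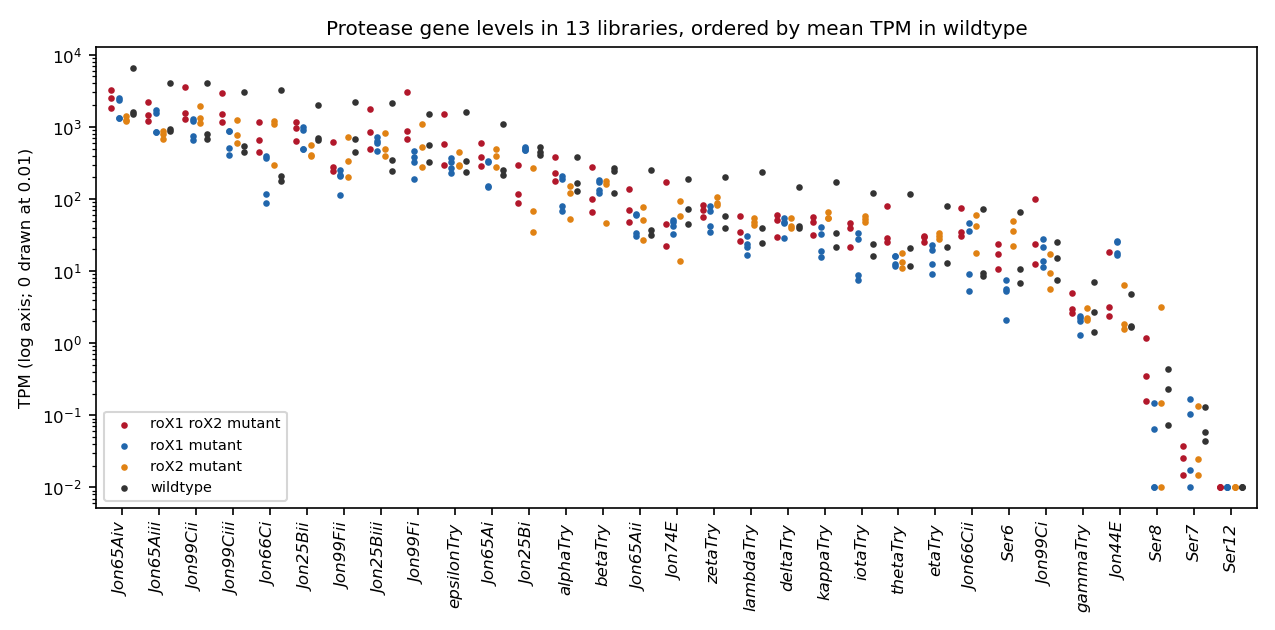
TPM (log axis) of the 31 protease genes in each of the 13 libraries, ordered by mean TPM in wildtype and coloured by genotype; each point is one library and 0 is drawn at 0.01. For most genes 1 wildtype library lies above all other points, while *Jon44E* is high in the 4 *roX1* mutant libraries and *Jon25Bi* is low in several *roX1 roX2* and *roX2* mutant libraries.

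The 6 most abundant genes showed how strongly single libraries shaped these levels. *Jon65Aiv* had 2481, 1846 and 3283 TPM in *roX1 roX2* mutant larvae, 2390.3, 2547, 1322 and 1310.2 TPM in *roX1* mutant larvae, 1217, 1255 and 1424 TPM in *roX2* mutant larvae and 6547, 1617 and 1514 TPM in wildtype larvae. Wildtype replicate 1 was the highest of the 13 libraries, and the other 2 wildtype libraries lay within the range of the mutants. *Jon65Aiii*, its cluster neighbour, had 1465, 1197 and 2222 TPM in *roX1 roX2* mutant larvae, 1560.3, 1708, 846 and 839 TPM in *roX1* mutant larvae, 793, 673 and 888 TPM in *roX2* mutant larvae and 4075, 936 and 866 TPM in wildtype larvae, with the same library on top. *Jon99Cii* had 1561, 1278 and 3569.7 TPM in *roX1 roX2* mutant larvae, 1283, 1202, 653 and 746 TPM in *roX1* mutant larvae, 1324, 1961 and 1132 TPM in *roX2* mutant larvae and 4066, 682 and 795 TPM in wildtype larvae. For *Jon99Cii*, *roX1 roX2* mutant replicate 4 came close to wildtype replicate 1, and wildtype replicates 3 and 4 lay below all *roX1 roX2* and *roX2* mutant libraries. *Jon99Ciii* had 1490.4, 1175 and 2933 TPM in *roX1 roX2* mutant larvae, 886, 879, 403 and 506 TPM in *roX1* mutant larvae, 758, 1233 and 596 TPM in *roX2* mutant larvae and 3024, 451 and 534 TPM in wildtype larvae, again with wildtype replicate 1 and *roX1 roX2* mutant replicate 4 far above the rest. *Jon66Ci* had 653, 448 and 1172 TPM in *roX1 roX2* mutant larvae, 374, 395, 88.6 and 118 TPM in *roX1* mutant larvae, 1197, 1106 and 292 TPM in *roX2* mutant larvae and 3243, 208 and 175 TPM in wildtype larvae. This gene varied most in wildtype, 18.9-fold in CPM between the lowest and highest library. *Jon25Bii* had 959, 640.1 and 1155 TPM in *roX1 roX2* mutant larvae, 909, 995, 487 and 494 TPM in *roX1* mutant larvae, 397, 406 and 556 TPM in *roX2* mutant larvae and 2026, 706 and 665 TPM in wildtype larvae, and here only wildtype replicate 1 lay above the highest mutant library.

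Summed over all 31 genes, the proteases took 0.622, 0.502 and 1.31% of the counts on genes in *roX1 roX2* mutant larvae, 0.588, 0.596, 0.317 and 0.353% in *roX1* mutant larvae, 0.496, 0.561 and 0.440% in *roX2* mutant larvae and 1.86, 0.361 and 0.430% in wildtype larvae. Wildtype replicate 1 had the highest level of all 13 libraries for 24 of the 30 tested genes. It lay above both other wildtype libraries for 28 of 30, by a median of 4.58-fold over their mean, whereas it lay above both for 41.9% of all 13975 genes tested, with a median log2 difference of 0.0032. The exceptions were *Ser7* and *Ser8*, both at trace counts. Replicate 4 of the *roX1 roX2* mutant had a smaller shift of the same kind, above both other libraries of its genotype for 28 of 30 genes, beside 36.1% of all genes, and by a median of 2.38-fold. Among the 28 genes other than *Ser7* and *Ser8*, the median ratio of the highest to the lowest library was 2.91 in *roX1 roX2* mutant larvae, 2.08 in *roX1* mutant larvae, 1.87 in *roX2* mutant larvae and 5.68 in wildtype, while genes of at least 10 CPM in general had median ratios of 1.18 to 1.45.

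**Figure D2:**
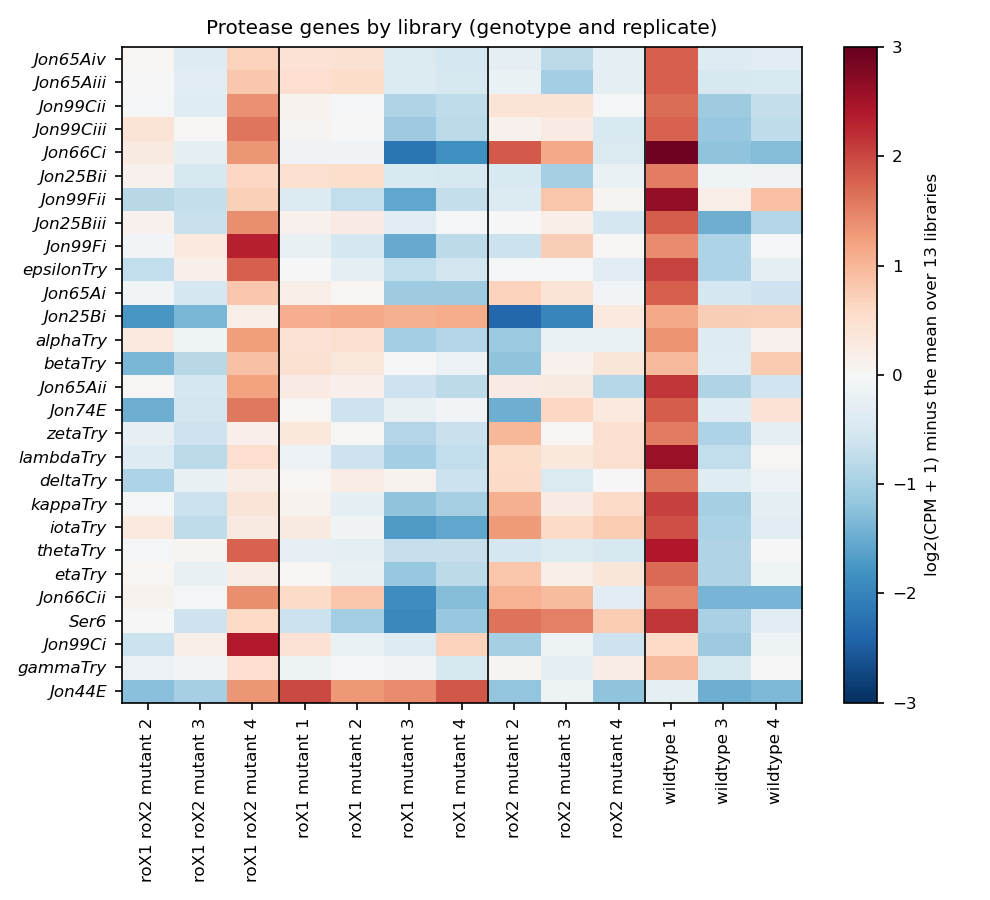
Level of 28 protease genes (rows, ordered as by TPM in wildtype) in the 13 libraries (columns, by genotype and replicate), as log2(CPM + 1) minus the mean of the gene over all libraries. Wildtype replicate 1 is high in nearly every row and *roX1 roX2* mutant replicate 4 in most. The rows of *Jon25Bi* and *Jon44E* differ from most others between the genotypes, with those libraries still highest within their genotypes.

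*Jon25Bi* differed from most of these genes between the genotypes. Wildtype replicate 1 and *roX1 roX2* mutant replicate 4 were still its highest libraries within their genotypes. The gene was the least variable of the 28 genes in wildtype (1.33-fold between lowest and highest library) and in the *roX1* mutant (1.06-fold), and the most variable in the *roX2* mutant (6.49-fold). *Jon25Bi* had 36.4, 47.4 and 142 CPM in *roX1 roX2* mutant larvae, 267, 276, 262 and 269.7 CPM in *roX1* mutant larvae, 23.7, 30.9 and 153 CPM in *roX2* mutant larvae and 274, 209 and 206 CPM in wildtype larvae. Its levels in replicates 2 and 3 of the *roX1 roX2* and *roX2* mutants were thus far below those of all *roX1* mutant and wildtype libraries, and replicate 4 of both mutants lay between. *Jon44E* also differed between the genotypes, with 1.62, 2.10 and 14.5 CPM in *roX1 roX2* mutant larvae, 23.3, 14.3, 15.7 and 21.5 CPM in *roX1* mutant larvae, 1.72, 4.61 and 1.68 CPM in *roX2* mutant larvae and 4.05, 1.26 and 1.44 CPM in wildtype larvae. Wildtype replicate 1 and *roX1 roX2* mutant replicate 4 were again highest within their genotypes. All *roX1* mutant libraries lay above all wildtype and *roX2* mutant libraries for *Jon44E*, and *roX1 roX2* mutant replicate 4 reached their level while the other 2 libraries of the double mutant did not.

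The shift of wildtype replicate 1 extended to other genes of the gut. Markers of midgut enterocytes (8 genes, among them *mex1*, *Myo31DF* and *GATAe*, none at 0 in any library) summed to 429.9, 302 and 481 CPM in *roX1 roX2* mutant larvae, 398, 333, 222 and 241 CPM in *roX1* mutant larvae, 402, 429 and 334 CPM in *roX2* mutant larvae and 1225, 327 and 388 CPM in wildtype larvae. Other proteases of the trypsin fold (19 of 20 listed genes found) reached 1336, 832 and 2185 CPM in *roX1 roX2* mutant larvae, 1265, 1297, 489 and 518 CPM in *roX1* mutant larvae, 1498, 1051 and 736 CPM in *roX2* mutant larvae and 5477, 686 and 762 CPM in wildtype larvae. Other digestive enzymes (29 genes, mostly amylases, maltases, mannosidases and lipases) gave 311, 251 and 549 CPM in *roX1 roX2* mutant larvae, 561, 526, 390.1 and 396 CPM in *roX1* mutant larvae, 488, 514 and 385 CPM in *roX2* mutant larvae and 1022, 234 and 299 CPM in wildtype larvae. In these 3 lists wildtype replicate 1 was the highest library. It was not the highest for genes of the peritrophic matrix of the gut (5 of 6 listed genes found). These summed to 648, 654, 201 and 157 CPM in *roX1* mutant larvae and 549, 166 and 124 CPM in wildtype larvae. Wildtype replicate 1 also had the largest share of reads aligned to several places, 19.6% of the library against 6.11% to 13.3% in the others, and the part of this in the protease levels was not tested. Genes of the moulting cuticle (*Osi* and *Twdl* families, 44 tested) divided the libraries differently, with 22544, 16422, 1875 and 1661 CPM in the *roX1* mutant and at most 5308 CPM in any other library, and the proteases were also higher in *roX1* mutant replicates 1 and 2 (6356 and 6169 CPM summed) than in replicates 3 and 4 (3391 and 3645 CPM). In the *roX2* mutant the order was opposite. Its moulting genes summed to 1369, 2212 and 5308 CPM, while its proteases summed to 5674, 5412 and 4684 CPM. The part of these moulting genes in the protease levels was not tested.

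**Figure D3:**
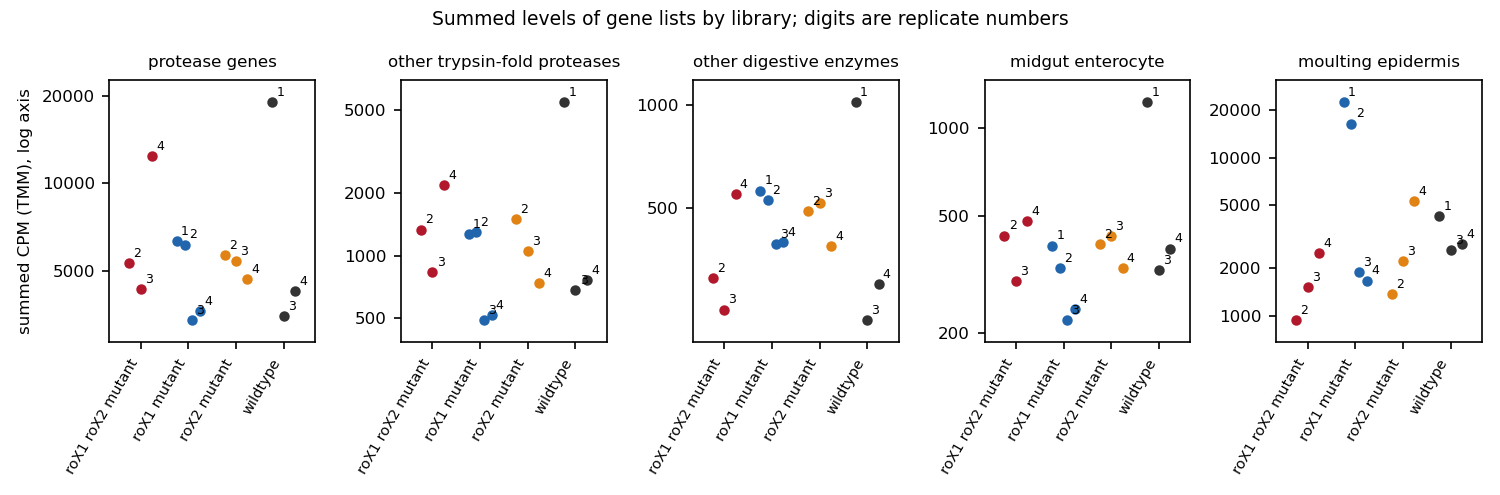
Summed TMM-scaled CPM (log axes) of the 31 protease genes, of 2 lists of other digestive genes, of midgut enterocyte markers and of moulting epidermis genes in each library, by genotype with replicate numbers. Wildtype replicate 1 is highest in the first 4 panels, and *roX1* mutant replicates 1 and 2 are highest in the fifth.

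Loss of both roX RNAs was compared with wildtype first. In this comparison 0 of the 30 protease genes passed an adjusted p of 0.05 in edgeR, while 9.08% of all 13975 genes tested did. At an unadjusted p under 0.05 there were 2 genes, both with negative fold changes (24.7% of all genes reached this level in either direction), and DESeq2 called 1 gene lower (15.2% of all genes in either direction). *Jon25Bi* had no adjusted p in DESeq2, so it could not be called there. The fold changes were negative for 22 of 30 genes with a median log2 value of -0.50, beside -0.017 over all genes. Their standard errors had a median of 0.69, against 0.26 over all genes. *Jon99Fii* had 109, 118 and 319 CPM in *roX1 roX2* mutant larvae and 1207, 224 and 363 CPM in wildtype larvae. The log2 fold change of *Jon99Fii* was -1.72 (SE 0.63, adjusted p = 0.115), and the 2 groups overlapped, because double mutant replicate 4 lay between wildtype replicates 3 and 4. For *Jon25Bi*, whose libraries are given above, it was -1.61 (SE 0.65, adjusted p = 0.153), and all double mutant libraries lay below all wildtype libraries. *Ser7*, with at most 0.149 CPM, was the only other gene without overlap, beside 37.3% of all genes in this comparison. The highest fold changes belonged to *Jon44E*, at 1.43 (SE 0.78, adjusted p = 0.285), and *Jon99Ci*, at 1.38 (SE 0.73, adjusted p = 0.274).

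The direction of these fold changes rested on 1 library. Without wildtype replicate 1 the fold changes of the *roX1 roX2* mutant against wildtype were positive for 26 of 30 genes, with a median of 0.67. In this edgeR fit 0 of them passed, beside 6.18% of all genes (smallest adjusted p = 0.0622). *Jon99Cii* then had a log2 fold change of 1.40, *Jon99Ciii* of 1.78 and *Jon66Ci* of 1.85, while *Jon25Bi* kept a value of -1.48 and *Jon99Fii* had -0.71. *Jon44E* moved to 2.15, *Jon99Ci* to 1.91 and *Ser7* to -1.93. Without *roX1 roX2* mutant replicate 4 instead, 29 of 30 fold changes were negative, with a median of -0.97, and *Jon44E* stood at -0.28 and *Jon99Ci* at -0.13. Among the libraries left out in turn, only the omission of *roX2* mutant replicate 4 from the joint fit let a gene pass, *Jon25Bi* (-1.61, adjusted p = 0.0407).

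**Figure D4:**
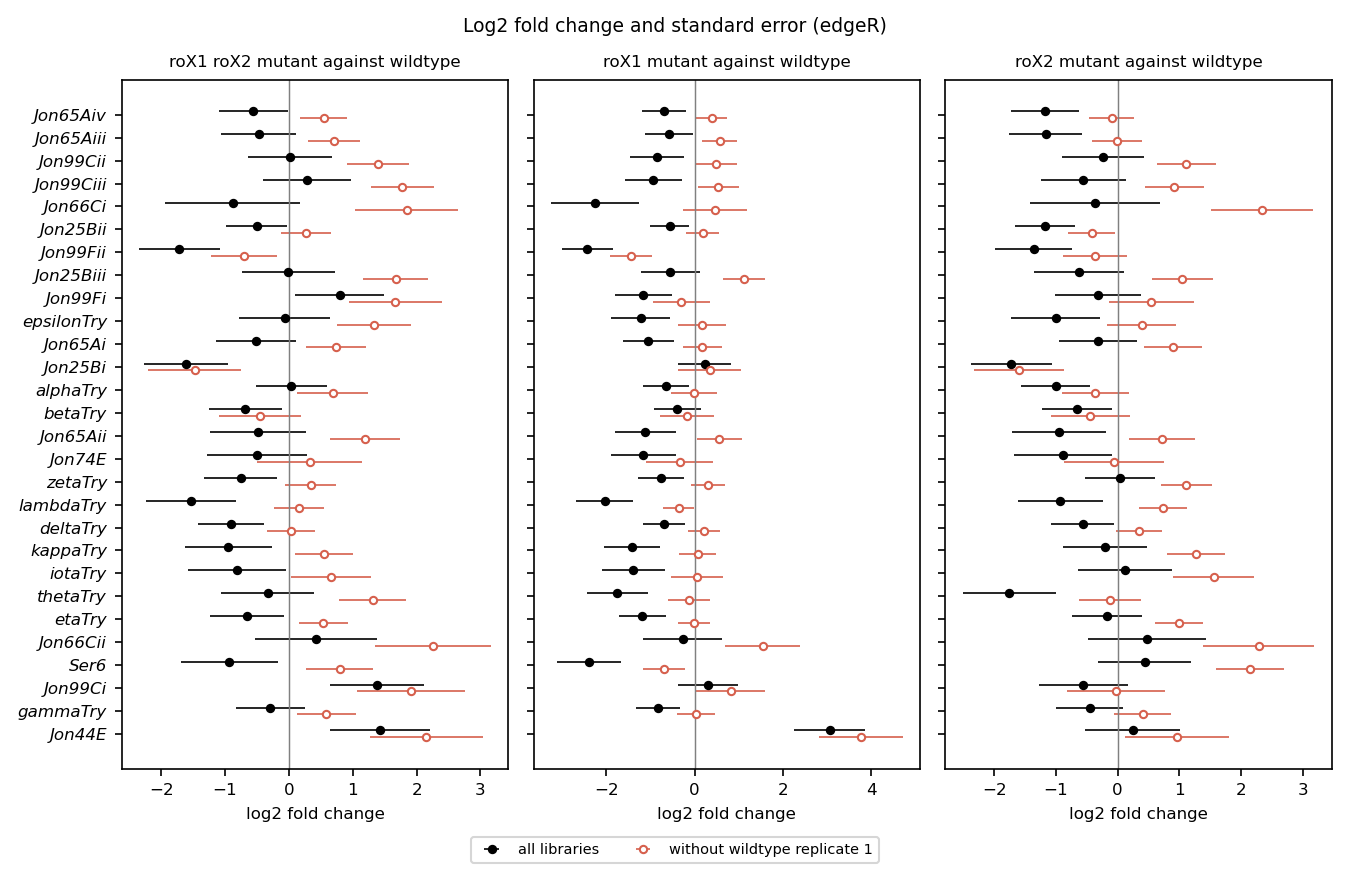
Log2 fold change with its standard error (edgeR) of 28 protease genes in each roX mutant against wildtype, with all 13 libraries (filled) and without wildtype replicate 1 (open). The 3 comparisons share the wildtype libraries. Leaving out the single library moved most genes to the right, and the medians over 30 tested genes went to 0.67 in *roX1 roX2* mutant larvae, 0.17 in *roX1* mutant larvae and 0.63 in *roX2* mutant larvae.

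Between the *roX1* mutant and wildtype, which differ in the more abundant roX RNA, 27 of 30 fold changes were negative with a median of -0.90, beside 0.017 over all genes. edgeR called 0 of 30 genes, beside 1.32% of all genes. At an unadjusted p under 0.05 there were 1 gene with a positive and 7 with a negative fold change, together 8 of 30, beside 16.7% of all genes, and DESeq2 called 1 gene higher and 3 lower, together 4, beside 6.82% of all genes. *Jon99Fii* had 147, 116, 64.8 and 118 CPM in *roX1* mutant larvae, below each of the wildtype values given above. It averaged 111 ± 34.1 CPM in the *roX1* mutant (SD, n = 4) and 598 ± 532 CPM in wildtype (n = 3), a log2 fold change of -2.42 (SE 0.58, adjusted p = 0.0702) in edgeR. *Jon44E* averaged 18.7 ± 4.40 CPM in the *roX1* mutant and 2.25 ± 1.56 CPM in wildtype, with a log2 fold change of 3.05 (SE 0.80, adjusted p = 0.0909). These were the only protease genes without overlap between the groups, beside 16.2% of all genes. In DESeq2 both passed, at adjusted p = 0.000394 for *Jon99Fii* and 0.000280 for *Jon44E*, together with *Ser6* (adjusted p = 0.00633) and *lambdaTry* (adjusted p = 0.0130).

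X-linked *Ser6* had 4.39, 3.08, 1.21 and 2.85 CPM in *roX1* mutant larvae and 36.5, 3.31 and 5.78 CPM in wildtype larvae, and its edgeR log2 fold change was -2.40 (SE 0.72, adjusted p = 0.126). The *lambdaTry* gene had 18.9, 13.6, 10.1 and 12.4 CPM in *roX1* mutant larvae and 134, 12.5 and 22.1 CPM in wildtype larvae, with a value of -2.03 (SE 0.65, adjusted p = 0.147). For both genes the lower wildtype libraries lay within or close to the range of the mutant. The *thetaTry* (-1.75, SE 0.69, adjusted p = 0.231), *Jon66Ci* (-2.25, SE 0.99, adjusted p = 0.284), *kappaTry* (-1.42, SE 0.63, adjusted p = 0.289) and *etaTry* (-1.19, SE 0.54, adjusted p = 0.294) fold changes were the other 4 with an unadjusted p under 0.05. Without wildtype replicate 1, 19 of 30 fold changes were positive, and those of *Jon66Ci* (0.46) and *kappaTry* (0.066) turned positive. The other values were then -1.43 for *Jon99Fii*, -0.69 for *Ser6*, -0.36 for *lambdaTry*, -0.12 for *thetaTry*, -0.017 for *etaTry* and 3.76 for *Jon44E*. The smallest adjusted p of the protease genes in this edgeR fit was 0.0758, while 1.81% of all genes passed. *Jon44E* passed in edgeR when *roX1 roX2* mutant replicate 4 was left out of the joint fit (adjusted p = 0.0254), beside 0.755% of all genes.

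The *roX2* mutant, in which the less abundant roX RNA is missing, was compared with wildtype in the same way. Of the 30 genes 24 had negative fold changes, with a median of -0.56, beside 0.012 over all genes, and edgeR called 0, beside 0.351% of all genes. At an unadjusted p under 0.05 there were 3 genes, all with negative fold changes, beside 10.8% of all genes. DESeq2, which gave *Jon25Bi* no adjusted p, called 0, beside 1.75% of all genes. *Jon25Bi* averaged 69.4 ± 73.0 CPM in *roX2* mutant larvae and 229.6 ± 38.4 CPM in wildtype larvae (SD, n = 3 each), a log2 fold change of -1.73 (SE 0.66, adjusted p = 0.373). Its neighbour *Jon25Bii* had 276, 189 and 329 CPM in *roX2* mutant larvae and 1099, 342 and 353 CPM in wildtype larvae, with a value of -1.18 (SE 0.48, adjusted p = 0.407). These were the only 2 of 30 genes without overlap, both lower in the mutant, beside 11.4% of all genes, although the *Jon25Bii* gap was only between 329 and 342 CPM. The third gene was *thetaTry*, with 8.83, 9.72 and 9.21 CPM in *roX2* mutant larvae, 74.0, 6.65 and 13.1 CPM in wildtype larvae and a log2 fold change of -1.76 (SE 0.75, adjusted p = 0.426).

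Without wildtype replicate 1, 19 of 30 fold changes of the *roX2* mutant against wildtype were positive, and *Jon66Ci* stood at 2.35, *Jon66Cii* at 2.29 and *Ser6* at 2.15. In this edgeR fit 0 protease genes passed, beside 0.23% of all genes (smallest adjusted p = 0.261). Of the 3 genes named above, *Jon25Bi* then had -1.60, *Jon25Bii* -0.42 and *thetaTry* -0.12. *Jon25Bi* passed when *roX2* mutant replicate 4, the library with 153 CPM, was left out (-3.07, adjusted p = 0.0357).

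Comparisons among the mutants involve the wildtype libraries only through the joint gene filter, normalization and estimate of spread. Against the *roX1* mutant, 25 of 30 fold changes of the *roX1 roX2* mutant were positive, with a median of 0.56, beside -0.011 over all genes. edgeR called 0 of them, beside 18.0% of all genes, with 1 gene in each direction at an unadjusted p under 0.05 (34.7% of all genes) and 1 in each direction in DESeq2 (26.4% of all genes). *Jon99Fi* had 301, 388 and 1603 CPM in *roX1 roX2* mutant larvae and 275, 219, 111 and 184 CPM in *roX1* mutant larvae. All double mutant libraries lay above all *roX1* mutant libraries, and the log2 fold change was 1.95 (SE 0.65, adjusted p = 0.0585). *Jon25Bi* averaged 75.3 ± 58.1 CPM in *roX1 roX2* mutant larvae and 268 ± 6.03 CPM in *roX1* mutant larvae, again without overlap, with a value of -1.83 (SE 0.63, adjusted p = 0.0645); DESeq2 gave no adjusted p for this gene. *Ser6* and *thetaTry* were the other genes without overlap, both higher in the double mutant, so that 4 of 30 did not overlap, beside 38.7% of all genes. *Ser6* had 7.52, 4.53 and 11.8 CPM in the *roX1 roX2* mutant and 4.39, 3.08, 1.21 and 2.85 CPM in the *roX1* mutant, a log2 fold change of 1.46 (SE 0.71, adjusted p = 0.168). The *thetaTry* gene had 12.9, 14.0 and 47.6 CPM in the *roX1 roX2* mutant and 11.0, 10.5, 7.72 and 7.85 CPM in the *roX1* mutant, with 1.42 (SE 0.68, adjusted p = 0.165).

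Single libraries changed these calls. *Jon99Fi* passed without wildtype replicate 1 (adjusted p = 0.0356), together with *Jon99Ciii*, *thetaTry* and *Ser6*, beside 21.5% of all genes. *Jon99Fi* also passed without wildtype replicate 3 (adjusted p = 0.0491). These wildtype libraries enter this comparison only through the joint filter, normalization and spread. *Jon25Bi* passed without *roX2* mutant replicate 2, 3 or 4 (adjusted p = 0.0424, 0.0491 and 0.0144). Both *Jon25Bi* (-2.68, adjusted p = 0.0335) and *Jon44E* (-3.33, adjusted p = 0.0134) passed, beside 10.6% of all genes, without *roX1 roX2* mutant replicate 4. Without that library, which holds 1603 CPM of *Jon99Fi*, the fold change of *Jon99Fi* was 0.81, that of *thetaTry* 0.54 and that of *Ser6* 1.06, and the median over the 30 genes was 0.038, with 17 positive values.

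Against the *roX2* mutant, fold changes of the *roX1 roX2* mutant were divided, 16 positive and 14 negative, with a median of 0.14, beside -0.052 over all genes. edgeR called 0 of 30, beside 7.67% of all genes, and both an unadjusted p under 0.05 (beside 23.8% of all genes) and DESeq2 (beside 12.6% of all genes) gave 1 gene, *Jon99Ci*, with a positive fold change. *Jon99Ci* had 5.44, 10.3 and 51.5 CPM in *roX1 roX2* mutant larvae and 4.00, 8.01 and 5.58 CPM in *roX2* mutant larvae, so that the groups overlapped, and its log2 fold change was 1.93 (SE 0.75, adjusted p = 0.144). In this comparison *thetaTry* (1.42, SE 0.75, adjusted p = 0.272) and *alphaTry* (1.04, SE 0.56, adjusted p = 0.285) were higher in all double mutant libraries than in all *roX2* mutant libraries, and *Ser6* (-1.37, SE 0.77, adjusted p = 0.302) and *iotaTry* were lower in all, together 4 of 30, beside 26.8% of all genes. The *iotaTry* gene had 18.4, 8.41 and 18.2 CPM in the *roX1 roX2* mutant and 37.2, 22.5 and 25.7 CPM in the *roX2* mutant. *Ser6* had 25.2, 23.3 and 13.4 CPM in the *roX2* mutant, above all double mutant values given before. Without *roX1 roX2* mutant replicate 4, 23 of 30 fold changes were negative and the median was -0.63. That of *Jon99Ci* was then 0.43, that of *thetaTry* 0.54, that of *alphaTry* 0.55 and that of *Ser6* -1.77.

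The ratio of 2 neighbouring genes within a library does not change with a scaling common to both genes, and was read for the 17 pairs of protease genes less than 2000 bp apart, after the values above were known. Ratios did not overlap between the groups for 5 of 17 pairs in the *roX1 roX2* mutant against wildtype, beside 34.7% of 5554 pairs of neighbouring genes in the genome with a mean of at least 50 counts. The other counts were 5 for the *roX1* mutant (beside 19.4%) and 5 for the *roX2* mutant (beside 12.8%) against wildtype, and 8 for the *roX1 roX2* mutant against the *roX1* mutant (beside 39.8%) and 4 against the *roX2* mutant (beside 23.2%). The shares of protease pairs were thus 29.4% in each comparison with wildtype, and 47.1% and 23.5% in the other 2, and their differences from the background were not tested. Without wildtype replicate 1, which leaves 2 wildtype libraries, the counts against wildtype were 8 pairs in the *roX1 roX2* mutant (beside 53.0%), 7 in the *roX1* mutant (beside 39.2%) and 11 in the *roX2* mutant (beside 23.9%).

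The pair whose ratio separated the groups in all 5 comparisons was *Jon99Fii* and *Jon99Fi*, which are divergent genes 1034 bp apart. *Jon99Fii* over *Jon99Fi* in CPM was 0.360, 0.305 and 0.199 in *roX1 roX2* mutant larvae, 0.535, 0.527, 0.586 and 0.643 in *roX1* mutant larvae, 0.713, 0.656 and 0.633 in *roX2* mutant larvae and 1.42, 1.35 and 1.18 in wildtype larvae. Wildtype libraries alone held more *Jon99Fii* than *Jon99Fi*, wildtype replicate 1 included, and the *roX1 roX2* mutant had the lowest ratios. *Jon99Cii* over *Jon99Ciii* was 0.728, 0.756 and 0.846 in *roX1 roX2* mutant larvae, 1.01, 0.951, 1.13 and 1.02 in *roX1* mutant larvae, 1.21, 1.11 and 1.32 in *roX2* mutant larvae and 0.935, 1.05 and 1.04 in wildtype larvae. The double mutant lay below every other library in this ratio, and the *roX1* mutant and wildtype overlapped. Both pairs are closely related, reads that match both genes of a pair were not counted, and the sequences of the strains at these genes were not analysed here. *Jon25Bi* over *Jon25Bii* was 0.0880, 0.175 and 0.245 in *roX1 roX2* mutant larvae, 0.509, 0.506, 0.948 and 1.01 in *roX1* mutant larvae, 0.0857, 0.164 and 0.466 in *roX2* mutant larvae and 0.249, 0.610 and 0.584 in wildtype larvae, lower in the double mutant than in all wildtype and *roX1* mutant libraries, with wildtype replicate 1 just above the highest double mutant library. *Jon66Cii* over *Jon66Ci* was 0.0523, 0.0687 and 0.0635 in *roX1 roX2* mutant larvae, 0.0961, 0.116, 0.0587 and 0.0766 in *roX1* mutant larvae, 0.0354, 0.0531 and 0.0610 in *roX2* mutant larvae and 0.0225, 0.0445 and 0.0484 in wildtype larvae, with all double mutant and all *roX1* mutant libraries above all wildtype libraries.

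**Figure D5:**
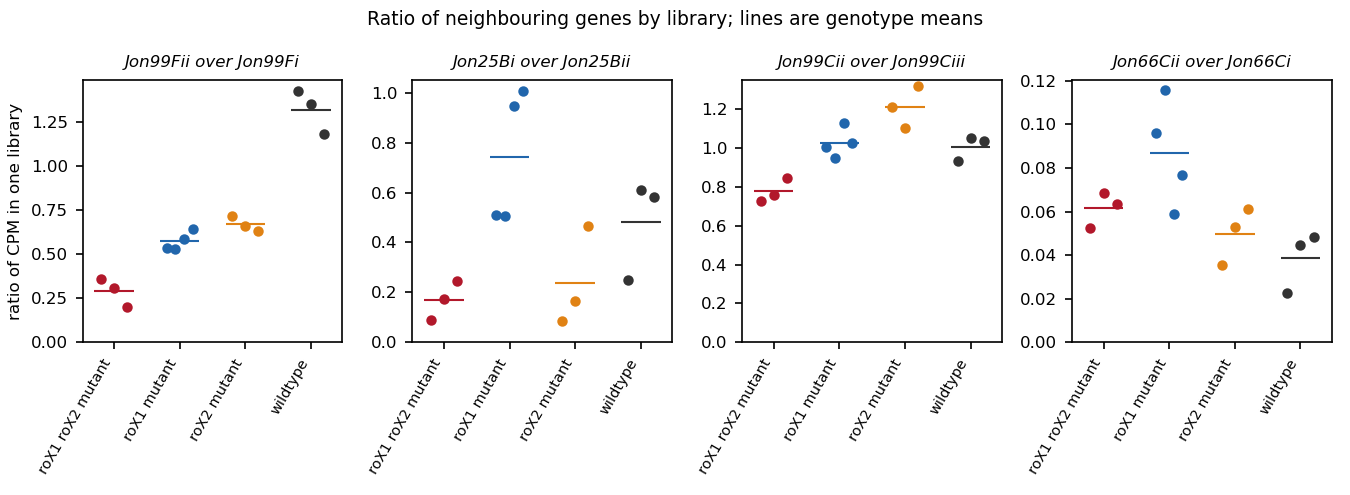
Ratio of the TMM-scaled CPM of 4 pairs of neighbouring Jonah genes within each library (points), by genotype, with lines at the genotype means; each axis starts at 0. For *Jon99Fii* over *Jon99Fi* all wildtype libraries lie above 1 and all mutant libraries below 1, with the *roX1 roX2* mutant lowest.

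Related genes from lists were read beside the proteases. Among other trypsin-fold proteases, 1 of 16 tested genes passed in the *roX1 roX2* mutant against wildtype, beside 9.08% of all genes. *Try29F* rose to 1.68 ± 0.379 CPM, against 0.663 ± 0.130 CPM in wildtype, a log2 fold change of 1.34 (SE 0.31, adjusted p = 0.0231), and did not pass without wildtype replicate 1 (1.23, adjusted p = 0.0678). *CG17571* was higher in the *roX1 roX2* mutant than in the *roX1* mutant, at 351 ± 167 CPM against 43.3 ± 19.4 CPM, with a log2 fold change of 3.02 (SE 0.92, adjusted p = 0.0434) that did not pass without *roX1 roX2* mutant replicate 4 (2.65, adjusted p = 0.111). *CG8329* was higher in the *roX1 roX2* mutant than in the *roX2* mutant, at trace levels of 0.111 ± 0.0421 CPM against 0.00608 ± 0.0105 CPM, and passed neither without wildtype replicate 1 nor without *roX1 roX2* mutant replicate 4. Among the 29 other digestive enzymes, 2 fell in the *roX1 roX2* mutant against wildtype, a share below that of all genes, and both are maltases, which cleave sugars. *Mal-A5* fell to 16.9 ± 1.16 CPM, against 30.2 ± 3.77 CPM in wildtype, a log2 fold change of -0.84 (SE 0.21, adjusted p = 0.0293). *Mal-B2* fell to 16.1 ± 1.72 CPM, against 28.3 ± 1.38 CPM in wildtype, with -0.81 (SE 0.18, adjusted p = 0.0192). Both passed without wildtype replicate 1, and neither did without *roX1 roX2* mutant replicate 4 (adjusted p = 0.0689 and 0.0692). Against the *roX1* mutant 4 of 29 passed, beside 18.0% of all genes: *Mal-A5* (-1.23, SE 0.20, adjusted p = 0.00320), *Mal-B1* (-1.32, SE 0.24, adjusted p = 0.00545) and the mannosidase gene *LManI* (-1.43, SE 0.39, adjusted p = 0.0295) were lower in the double mutant and the lipase gene *Lip4* (0.82, SE 0.19, adjusted p = 0.0162) was higher, though *Lip4* did not pass without *roX1 roX2* mutant replicate 4 (adjusted p = 0.0512). Against the *roX2* mutant 2 of 29 passed, beside 7.67% of all genes: *Mal-A5* (-1.15, SE 0.21, adjusted p = 0.0102) and *Mal-B2* (-0.72, SE 0.18, adjusted p = 0.0340) were lower in the double mutant, of which *Mal-B2* did not pass without that library (adjusted p = 0.115). In a list of 10 tested genes on feeding state, *tobi*, which encodes an alpha-glucosidase, rose in the *roX1* mutant to 4.93 ± 0.907 CPM, against 1.84 ± 0.242 CPM in wildtype, a log2 fold change of 1.42 (SE 0.23, adjusted p = 0.0145) that also passed without wildtype replicate 1 (1.33, adjusted p = 0.0435); it was the only one of the 10, beside 1.32% of all genes. In the *roX1 roX2* mutant the lipase gene *bmm* was higher than in the *roX1* mutant (0.48, SE 0.12, adjusted p = 0.0197), and *tobi* was lower (-0.89, SE 0.23, adjusted p = 0.0225), which did not pass without *roX1 roX2* mutant replicate 4 (adjusted p = 0.0833). All 8 midgut enterocyte markers had negative fold changes in each mutant against wildtype, with medians of -0.59 in *roX1 roX2* mutant larvae, -0.98 in *roX1* mutant larvae and -0.73 in *roX2* mutant larvae. The direction in the *roX1 roX2* and *roX2* mutants rested on wildtype replicate 1: without it the medians were 0.36 in *roX1 roX2* mutant larvae, with 6 of 8 positive, -0.12 in *roX1* mutant larvae, with 1 of 8 positive, and 0.12 in *roX2* mutant larvae, with 6 of 8 positive. Of 7 muscle markers, 5 (*Act57B*, *Mlc2*, *Tm2* and X-linked *up* and *wupA*) were lower in the *roX1 roX2* mutant both than in wildtype and than in the *roX1* mutant. These calls stood beside 9.08% and 18.0% of all genes, and held also without wildtype replicate 1, beside 6.18% and 21.5%. Against the *roX2* mutant 4 of the 7 (*Mlc2*, *Tm2*, *up* and *wupA*) were lower, beside 7.67% of all genes. Of these *up* did not pass without *roX1 roX2* mutant replicate 4. Other lists held calls too, beside the same shares of all genes. In the double mutant haemocyte *Pxn* (of 4 tested) was lower than in wildtype and the *roX1* mutant. Fat body *apolpp* (of 3) and X-linked *Peritrophin-A* (of 4) were lower there than in the *roX1* mutant. Neuronal *nSyb* (of 4) was higher than in each single mutant, and *Syt1* than in the *roX2* mutant. X-linked *Smox*, from the list of 21 tested gut regulators, was lower than in wildtype and each single mutant, and *bigmax* was higher than in the *roX1* mutant. Without *roX1 roX2* mutant replicate 4, the neuronal and regulator genes did not pass in any of these comparisons, nor did *Pxn* against wildtype. *Smox* against wildtype also did not pass without wildtype replicate 1 (edgeR adjusted p = 0.0617). The part of these markers in the protease fold changes was not tested.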

How the data were processed

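Counts per gene were deposited by the authors for 13 libraries. Per the study's methods, polyadenylated RNA was converted to libraries with the TruSeq v2 kit, which does not mark the strand, reads were mapped with STAR 2.5.1b to genome release 6, and reads were counted with HTSeq 0.6.1 at default settings; the deposited counts are raw. Summary lines of the counting program (10.3% to 23.8% of a library) were left out. Genotypes came from the sample labels. Positions and exon lengths for TPM came from Ensembl BDGP6.54, in which 17229 of 17476 identifiers were found.

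Genes with at least 20 counts summed over libraries (13975) were fitted with edgeR 4.0.16 (R 4.3.3; TMM, one quasi-likelihood model of 4 genotypes, Benjamini-Hochberg adjustment over all genes tested, threshold 0.05) after tests on simulated data. DESeq2 1.42.0 was an alternative, and gave *Jon25Bi* no adjusted p in any comparison. Of 31 proteases 30 were tested. The genes and lists, and the alternatives, were chosen with earlier results of these data known. By a rule set with them, values of every library were given for genes past the threshold and for the 6 genes with the highest mean TPM in wildtype; other genes shown by library were chosen after their values were seen. For the *roX1* mutant against wildtype, deviations of same-numbered libraries correlated at 0.525 to 0.644. Libraries of different numbers reached 0.629, so the numbers did not clearly pair them. For the *roX1 roX2* mutant against the *roX2* mutant the values were 0.180 to 0.258, against at most 0.125 for different numbers. A fit with the replicate number as a block gave 0 protease calls in both comparisons, as without it. Sequences of the genes were not analysed here.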

Additional observations from a re-analysis of the deposited data

How the results depend on the processing

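In edgeR, 0 protease genes passed in the 5 comparisons as designed and likewise with RLE size factors, with TMM factors from the major autosome arms, without mitochondrial genes, without a filter, and, chosen after seeing the data, without the protease genes in the normalization. DESeq2 called 1 gene lower in the *roX1 roX2* mutant against wildtype (*Jon99Fii*), 1 higher (*Jon44E*) and 3 lower (*Jon99Fii*, *Ser6*, *lambdaTry*) in the *roX1* mutant against wildtype, 1 higher (*Jon99Fi*) and 1 lower (*Jon44E*) in the *roX1 roX2* mutant against the *roX1* mutant, and 1 higher (*Jon99Ci*) against the *roX2* mutant. For the *roX1 roX2* mutant against the *roX1* mutant, a minimum mean of 10 counts gave 1 higher (*Jon99Fi*; 23.5% of all genes called), a fit of only the 2 genotypes gave 1 lower (*Jon25Bi*; 27.7%), and the replicate block, whose numbers did not pair these libraries (correlations 0.0332 to 0.143), gave 4 higher (*etaTry*, *Ser6*, *iotaTry*, *Jon99Fi*) and 1 lower (*Jon25Bi*), beside 15.8% of all genes. The replicate block gave 0 calls in the other 4 comparisons; against wildtype only 2 numbers were shared by the *roX1 roX2* and *roX2* mutants, and the block moved their medians to 0.27 and 0.32.

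Without *roX2* mutant replicate 4, wildtype replicate 1 and replicates 1 and 2 of the *roX1* mutant together, 3 genes were higher in the *roX1 roX2* mutant against wildtype (*Jon99Ciii*, *Jon66Ci*, *Jon66Cii*; 10% of all genes called), 2 were higher (*Jon66Ci*, *Jon66Cii*) and 1 lower (*Jon25Bi*) in the *roX2* mutant against wildtype (1.06%), and 8 were higher and 1 lower (*Jon25Bi*) in the *roX1 roX2* mutant against the *roX1* mutant (20.8%). The *roX1* mutant libraries left out held the higher protease sums of that genotype (6356 and 6169 CPM, against 3391 and 3645 CPM). In the *roX1* mutant against wildtype, 21 of 30 fold changes were then negative, with a median of -0.27. The smallest adjusted p there was 0.0781 in edgeR (4.0% of all genes called). Leaving out 1 library at a time gave 0 to 1 lower in the *roX1 roX2* mutant and 0 to 1 lower in the *roX2* mutant against wildtype, 0 to 1 higher in the *roX1* mutant against wildtype, and 0 to 4 higher and 0 to 2 lower in the *roX1 roX2* mutant against the *roX1* mutant. The 4 higher came without wildtype replicate 1, beside 21.5% of all genes, and the 2 lower without *roX1 roX2* mutant replicate 4, beside 10.6%. Some named fold changes reversed when single libraries were left out. In the *roX1* mutant against wildtype, these included *Jon66Ci* (from -2.77 to 0.46 over the libraries left out in turn) and *kappaTry* (-1.88 to 0.066). Both turned positive without wildtype replicate 1. In the *roX1 roX2* mutant against wildtype, *Jon44E* (-0.28) and *Jon99Ci* (-0.13) turned negative without *roX1 roX2* mutant replicate 4. Lists and neighbour pairs without wildtype replicate 1, and lists without *roX1 roX2* mutant replicate 4, were added after seeing the data. The cause of these changes was not tested, beyond the levels of the left-out libraries given above. Depth limits *Ser7*, *Ser8* and *Ser12*; the other 28 genes had at least 28 counts in every library.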
